A study of Mus musculus with 5 samples.

Results

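DNA methylation of 10 genes of the piRNA pathway was described in mouse sperm: Piwil1, Piwil2, Mov10l1, Tdrd1, Tdrd6, Tdrd9, Mael, Asz1, Ddx4 and Rnf17. They were taken by name from the 34614 protein-coding and lncRNA genes of a RefSeq table, and all 10 were found. Sperm of C57BL/6 mice, collected by letting them swim from the cauda epididymis, where sperm are stored, were profiled by whole-genome bisulfite sequencing. The young group held 3 libraries of mice 2 months old and the old group 2 libraries of mice 18 months old, with no other treatment or genotype named. The labels do not tie the libraries to separate animals, so each p-value measures only the spread between these libraries, which may be technical.

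piRNAs are small RNAs of the germline that guide PIWI proteins to transposon transcripts and, in the fetal testis, to the transposon copies that are to be methylated. Many genes of this pathway have CpG-rich promoters that are methylated in somatic cells and lose that methylation in primordial germ cells, before they are switched on in male germ cells. Sperm DNA is otherwise highly methylated outside CpG-rich promoters.

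For each gene the reads were split into the start window, 1000 bp either side of the transcription start, and the body, which is the rest of the gene span with 1000 bp added on both sides. The methylation level is the percentage of reads over CpGs that were read as methylated. The deposited lists hold only cytosines with 5 or more reads in a library. A CpG or stretch said here to have no read can therefore have had fewer. Library values are listed in the order of the replicate numbers, young 1, 2 and 3, then old 1 and 2. A part was tested when every library had at least 3 CpGs and 20 reads in it. All 10 bodies met this, and 5 of the 10 start windows did (Mov10l1, Tdrd1, Asz1, Ddx4 and Rnf17). RefSeq starts of the GRCm38.p6 build were used for 7 members. For Piwil2, Tdrd6 and Rnf17, which are named only by their span here, the less methylated end of the span stood in for the start, so the level chose the end.

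Promoter sequences from RefSeq (GRCm38.p6), 250 bases before to 50 after the start, are shown for the 4 members whose start window was tested and whose sequence is in the table. They show which CpGs the methylation levels rest on. Each is written 5′ to 3′ on the strand of the gene, with CG in capitals where at least 1 library had 5 or more reads. Tdrd1 lies at chr19:56825959-56826258 (plus strand), Asz1 at chr6:18109012-18109311 (minus strand), Mov10l1 at chr15:88982744-88983043 (plus strand) and Ddx4 at chr13:112652261-112652560 (minus strand).
Tdrd1: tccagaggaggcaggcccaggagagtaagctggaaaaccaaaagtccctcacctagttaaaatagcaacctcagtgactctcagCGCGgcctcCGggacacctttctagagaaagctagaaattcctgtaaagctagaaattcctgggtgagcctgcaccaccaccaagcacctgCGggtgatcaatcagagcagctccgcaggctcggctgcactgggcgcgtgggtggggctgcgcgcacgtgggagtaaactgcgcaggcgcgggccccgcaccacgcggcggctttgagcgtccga
Asz1: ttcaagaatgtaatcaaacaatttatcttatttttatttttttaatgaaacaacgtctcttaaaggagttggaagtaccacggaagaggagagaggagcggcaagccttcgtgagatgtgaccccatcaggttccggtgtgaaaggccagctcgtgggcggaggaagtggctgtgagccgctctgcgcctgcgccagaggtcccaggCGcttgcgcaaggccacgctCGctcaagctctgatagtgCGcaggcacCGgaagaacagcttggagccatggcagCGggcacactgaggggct
Mov10l1: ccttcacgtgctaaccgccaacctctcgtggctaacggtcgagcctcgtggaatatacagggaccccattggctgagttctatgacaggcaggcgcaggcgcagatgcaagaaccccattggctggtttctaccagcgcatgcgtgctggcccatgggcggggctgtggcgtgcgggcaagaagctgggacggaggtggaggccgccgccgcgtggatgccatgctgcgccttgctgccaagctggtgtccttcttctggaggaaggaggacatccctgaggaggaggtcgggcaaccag
Ddx4: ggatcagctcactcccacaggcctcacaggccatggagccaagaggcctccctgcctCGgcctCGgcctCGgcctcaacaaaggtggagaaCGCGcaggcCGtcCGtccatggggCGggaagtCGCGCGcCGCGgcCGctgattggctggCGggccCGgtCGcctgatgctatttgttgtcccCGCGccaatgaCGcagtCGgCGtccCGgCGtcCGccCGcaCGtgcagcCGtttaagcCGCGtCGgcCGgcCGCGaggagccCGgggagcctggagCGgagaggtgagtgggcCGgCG

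The promoters differed in how much of them was read. In Ddx4 all 38 CG dinucleotides had a call. In Asz1 5 of 17 did, in Tdrd1 4 of 20 and in Mov10l1 0 of 20. Among the promoters not printed, 2 of 10 were read in Tdrd9, 0 of 24 in Mael and 0 of 18 in Piwil1. Few reads over a CpG-rich promoter were common in these libraries. Of the 3108 promoters with 30 or more CG dinucleotides, 69.9% had none read, and 12 (0.386%) had all of them read. Ddx4 was 1 of these 12, and the only one with a pooled level of 80% or more, at 86.6% over 3093 reads. The other 11 lay between 0.694% and 64.2%. Among the 647 promoters of this class with at least 20 reads, the median level was 0%. The start level of a CpG-rich member therefore rests mostly on CpGs at the flanks of its promoter, and the promoter itself was read in depth in Ddx4 alone among the 7 members with a sequence.

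**Figure D1:**
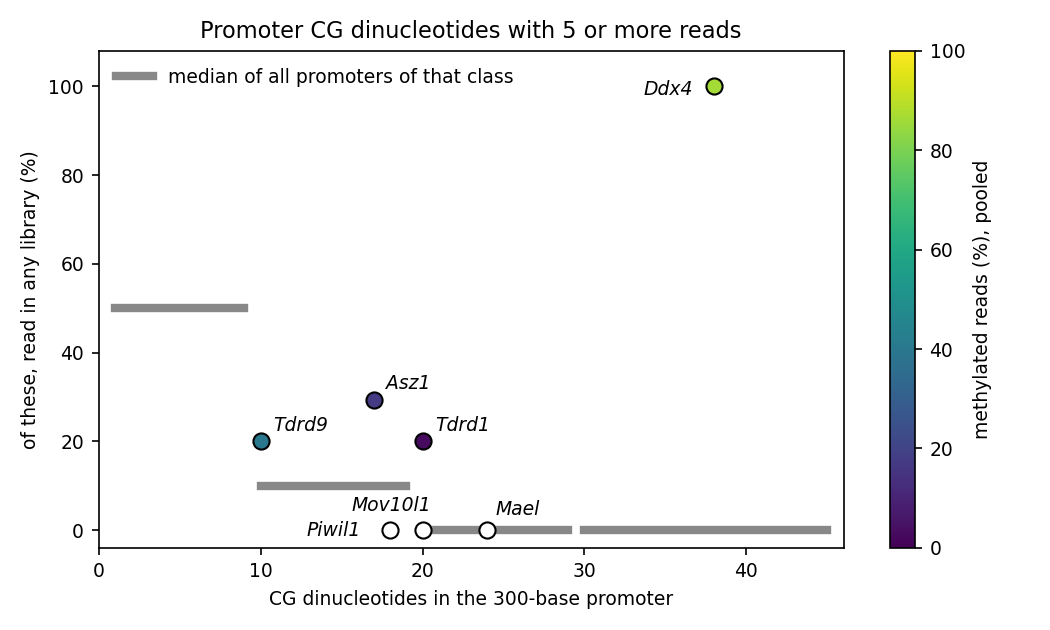
Share of the CG dinucleotides of each 300-base promoter that had 5 or more reads in any library, against their number, for 7 piRNA pathway genes (points coloured by the pooled methylation level, white where nothing was read). Grey bars are medians of all promoters in the same class of CG number; Ddx4, with 38 of 38 read, stands far above the bar at 0%.

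The letters of binding motifs were looked for on both strands of the same 300 bases. The E-box CACGTG was present in 6 of the 7 promoters (all but Asz1) and in 7.24% of 27025 promoters of the table. The E2F6 site GGCGGGA was present in Mael and Ddx4, and in 11.4% of all promoters. Both motifs hold a CG, and the 7 promoters have 10 to 38 CG dinucleotides against a median of 7 over all promoters. The shares over all promoters were not matched for CG number, so they do not show that a motif is particular to these genes. The short MYB core AACNG was present in 7 of 7 and in 80.4% of all, so it sets the members little apart. E-boxes and E2F6 sites are known from promoters of germline genes that are kept silent in somatic cells, and A-MYB is an activator of piRNA pathway genes in spermatocytes. A match of letters is a description and not a bound site.

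Ddx4, the germ-granule RNA helicase also called MVH or VASA, had the most methylated tested start of the 5. Its start window was at 83.2%, 72.9% and 89.6% in the young and at 83.4% and 89.3% in old libraries, on 608 to 1429 reads a library. Young replicate 2 was lowest and young replicate 3 highest, and the old libraries lay between them. The means were 81.9% ± 8.47 (SD, n = 3) for the young and 86.3% ± 4.14 (SD, n = 2) for the old group, 4.44 points apart (exact two-sided permutation test, p = 0.6). With 10 possible assignments of the libraries, no p under 0.1 can be reached.

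The high level of Ddx4 was that of the promoter itself. From 200 bp before to 400 bp after the start, the level was 85.6%, 72.9% and 91.5% in young and 89.1% and 92.2% in old libraries, on 4800 of the window's reads. In the 800 bp upstream of that stretch it was 73.2% over 153 pooled reads, and in the 600 bp downstream 40.5% over 247. Young replicate 2 had no read in either flank. In the other 4 libraries the CpG-dense centre of the window was more methylated than both flanks. The centre was also read more deeply than the gene: the start window had 12.2 to 20.1 reads per CpG in the 5 libraries and the body 8.03 to 9.25.

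Single CpGs of the printed Ddx4 promoter were methylated on both sides of the start. The pooled level ran from 72.5% at base 124 of the 300 to 95.8% at base 254, just after the start. The CpG inside the E-box, at base 224, was at 76.5%, 68.8% and 88.0% in the young and at 81.5% and 94.1% in old libraries, on 16 to 27 reads. The CpG inside the E2F6 site, at base 116, was at 70%, 80% and 83.3% in young and 85.7% and 92.3% in old libraries, on 5 to 18 reads. All 5 libraries were thus mostly methylated at both motifs, and these single CpGs have too few reads for an order between the ages to be read from them.

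Tdrd1, a tudor-domain protein that binds methylated arginines of PIWI proteins in germ granules, had the least methylated tested start of the members. Its window was at 33.3%, 11.9% and 36.9% in the young and at 18.9% and 39.3% in old libraries, on 42 to 122 reads. The 95% Wilson interval of young replicate 2 was 5.19% to 25.0% and that of old replicate 2 was 28.1% to 51.9%; such intervals cover counting error only. The old replicates fell on either side of young replicates 1 and 3, and the difference of means was 1.71 points (exact permutation test, p = 0.9). The promoter centre was read by few libraries. In the 200 bp before the start young replicate 2 was at 0% over 29 reads and young replicate 3 at 20% over 5 reads, and between 200 and 400 bp after it old replicate 1 was at 0% over 35 reads, with no read in the other libraries. At the upstream edge of the window, where 1 CpG was read in all 5 libraries, the level was 54.5% to 100%.

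Rnf17, the tudor-domain protein also known as TDRD4, was low at the low-coordinate end of its span. That window was at 28.6%, 25.3% and 42.7% in young and 31.6% and 38.7% in old libraries, on 93 to 164 reads. The opposite end was at 97.1%, 100% and 90.5% in young and 90.5% and 92.0% in old libraries. Next to the annotated end the pooled level was 11.5% over 26 reads in the 200 bp outside, from 2 libraries, and 8% over 25 reads in the 200 bp inside, from 3 libraries. It was 55.2% over 125 reads at the inner edge of the window and 14.3% over 42 reads at the outer edge. Old minus young was 2.95 points (exact permutation test, p = 0.7), and young replicate 3 was above both old libraries.

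Asz1, also called GASZ, anchors germ-granule proteins at mitochondria. Its start window was at 16.3%, 34.2% and 53.8% in the young and at 26.9% and 45.1% in old libraries, on 43 to 134 reads. In the young group alone they spanned 37.5 points, with the old ones inside that range. Old minus young was 1.23 points (exact permutation test, p = 0.9). The 5 promoter CpGs of the printed Asz1 sequence were read by 5 to 7 reads each in at most 3 libraries, with pooled levels of 10% to 25%.

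Mov10l1, the RNA helicase that hands precursor transcripts to the making of piRNAs, had the widest range over the 5 libraries among the tested starts, 43.4 points. Its start window was at 46.7%, 27.5% and 60.5% in the young and at 70.8% and 57.1% in old libraries, on 24 to 91 reads. Young replicate 3 lay above old replicate 2, so the ages overlapped. The means were 44.9% ± 16.6 (SD, n = 3) and 64.0% ± 9.68 (SD, n = 2), a difference of 19.1 points that did not pass the test (exact permutation test, p = 0.3; limma-type moderated quasi-binomial test, p = 0.179 and adjusted p = 1). None of its reads fell within 200 bp of the start, and the libraries read 4 to 16 CpGs in the window, not always the same ones.

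The other 5 start windows had too few reads in at least 1 library to be tested. Mael, a germ-granule protein needed for transposon silencing, had 7 to 28 reads a library and a pooled level of 45.8%. Tdrd9, a tudor-domain helicase, had 5 to 35 reads and 50.7%. Piwil1, the PIWI protein of meiotic and later cells, had 5 to 44 reads and 69.7%. At Tdrd6, a tudor-domain protein of the chromatoid body, the high-coordinate end was at 52.3%, 61.0% and 73.5% in the young and at 94.1% and 52.1% in old libraries, and the value of 94.1% rests on 17 reads over 3 CpGs. Piwil2, the PIWI protein of spermatogonia and fetal germ cells, had 0 to 51 reads at its used end and 95.1%. Both ends of the Piwil2 span were high, since the opposite end was at 94.1% to 98.5% in the 5 libraries.

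**Figure D2:**
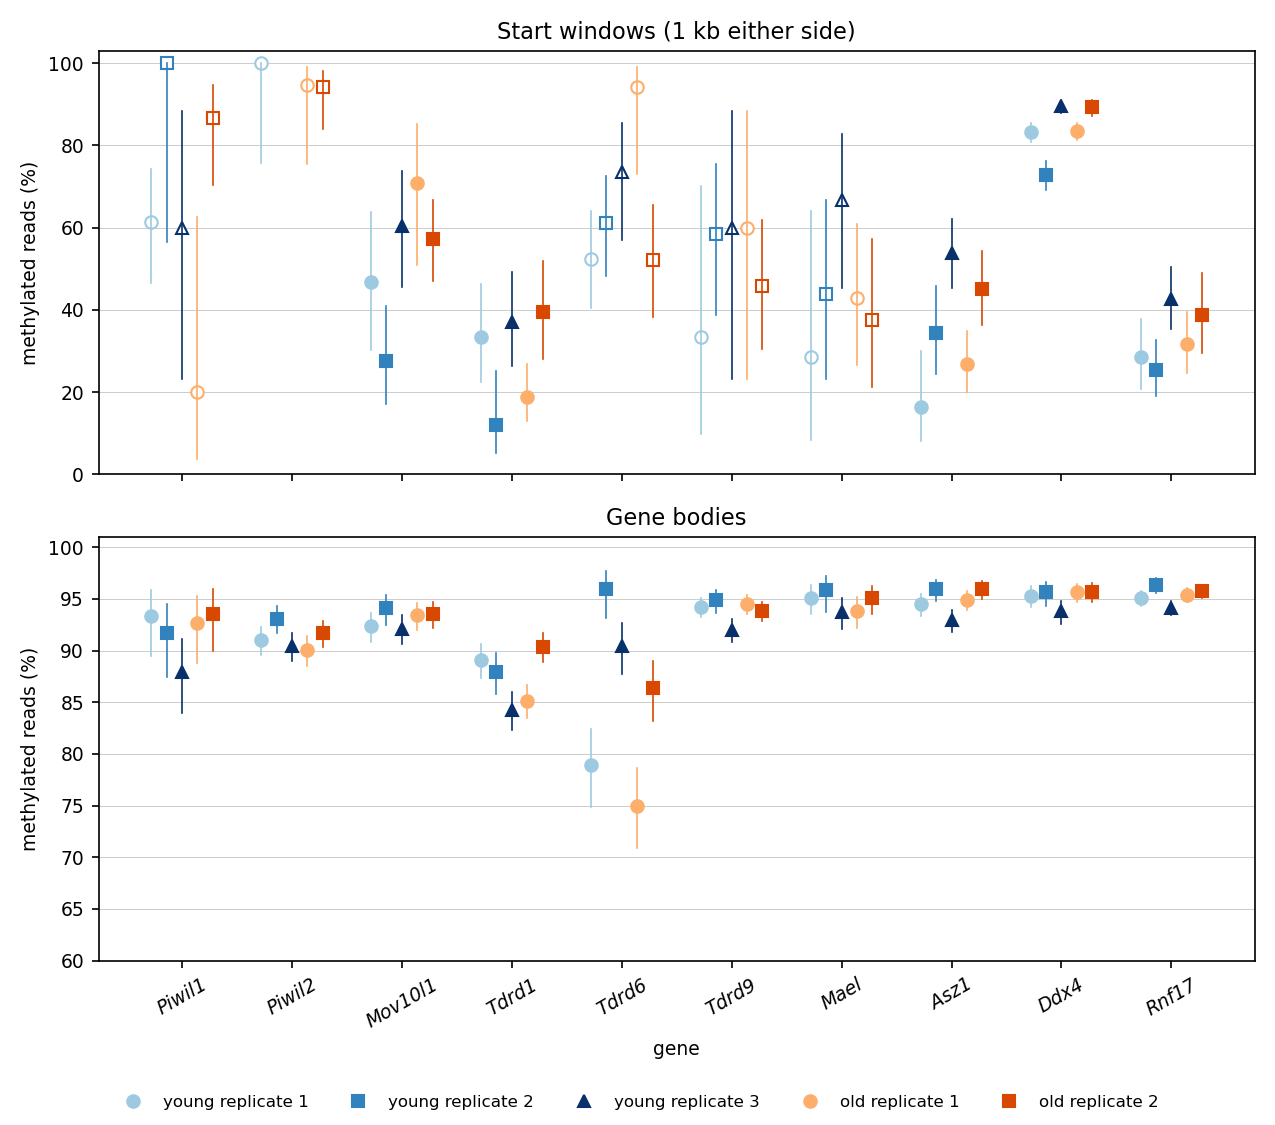
Methylated reads in percent for each of 10 genes, in start windows (upper panel, 0 to 100%) and gene bodies (lower panel, axis from 60%), one point per library with its 95% Wilson interval, open where the part had too few reads to be tested. The ages overlap at all 5 tested starts, and body points crowd between 84% and 97% except at Tdrd6.

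Set among all tested start windows, 4 of the 5 tested starts lay in the middle class of levels. Of 11371 tested starts, 26.0% had a pooled level from 10% up to 60%, 11.7% were lower and 62.3% higher, with a median of 83.7%. Genes without a strand entered with both ends of their span, so some of these 11371 windows are gene ends and not starts. The pooled levels of these 4 stood at percentiles 22.8 (Tdrd1), 25.8 (Rnf17), 28.2 (Asz1) and 34.3 (Mov10l1). The Rnf17 window was chosen as the less methylated end of its span, so its class and low rank were partly set by that choice. Ddx4 stood at percentile 51.5. These levels are means over the reads of many sperm, so a start methylated in part in each sperm and one fully methylated in some of them cannot be told apart.

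All 5 tested starts had a higher mean in the old group, by 1.23 to 19.1 points with a median of 2.95, but none was called. The opposite span ends of Piwil2 and Rnf17, not used because they were more methylated, also had enough reads. Old minus young there was -0.476 points at Piwil2 and -4.63 at Rnf17, so the shared direction depends in part on the choice of ends. Leaving out 1 library turned the direction at 4 of the 5 tested starts. Without young replicate 2 it was -6.03 points at Tdrd1, -0.079 at Ddx4 and -0.483 at Rnf17, without old replicate 2 it was -8.53 at Tdrd1, -7.91 at Asz1 and -0.614 at Rnf17, and without young replicate 1 it was -8.02 at Asz1. To be called, a start had to differ by 10 points or more with an adjusted p under 0.05, and the share called over all starts was 0%. Over all 11371 starts the median difference was -0.009 points, with a smallest adjusted p of 0.243 and 4.23% at an unadjusted p under 0.05. limma on log2 odds called 0 starts as well, with 491 at an unadjusted p under 0.05. None of the 5 members had an unadjusted p under 0.05, and in none did the old libraries lie wholly above or below the young ones, while 8.15% of all starts had both old libraries above and 8.72% below.

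The libraries took different places at these starts. Young replicate 3 was highest at 3 of 5 members (Asz1, Ddx4 and Rnf17), and young replicate 2 was lowest at 4 of 5. Among all 2959 tested starts with a pooled level of 10 to 60%, young replicate 3 was highest at 40.8% and young replicate 2 lowest at 34.0%, and the medians were 28.7%, 27.2% and 38.2% in young and 30.7% and 30.2% in old libraries. Ddx4 is not in this class, and over all 11371 starts the order was another: young replicate 3 was highest at 21.6% and lowest at 23.8%, and young replicate 2 highest at 26.6% and lowest at 21.2%. Young replicate 3 also stood apart along the genome, since its correlations with the other libraries over 1000-bp tiles were 0.854 to 0.883, against 0.903 to 0.909 among the other 4 (across tiles, which are not replicates). With both young replicates 2 and 3 left out, a choice made after seeing the data, the difference at Tdrd1 turned from 1.71 to -4.23 points and that at Asz1 moved from 1.23 to 19.7, above the 17.3 of Mov10l1.

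Tested starts of imprinted genes, of housekeeping genes and of a sperm tail gene had their highest mean level in young replicate 3 too. These windows were set by gene starts or span ends, not by the regions that carry an imprint. Imprinted genes methylated in oocytes were listed because their starts were taken to be unmethylated in sperm. Their levels are therefore given beside those of the members. At 7 tested starts of these imprinted genes, the mean was 30.8%, 26.9% and 42.2% in young and 35.4% and 28.4% in old libraries. A pooled level under 50% was found at 6 of the 7 (Snrpn was at 76.7%). Of these 7 starts, 4 were highest in young replicate 3, and Snrpn, Plagl1 and Nap1l5 were highest in young replicate 2, young replicate 1 and old replicate 1. At 3 housekeeping starts, each highest in young replicate 3, it was 19.7%, 9.72% and 23.1% in young and 10.2% and 14.8% in old libraries. The start of Odf2, a sperm tail gene and the single tested one of 10 spermatid and sperm genes, was at 5.98% to 13.4%, highest in young replicate 3. Among the cell types the samples could also hold, the 1 tested leukocyte start (Ptprc) was at 81.5% to 92.2%, and 2 epididymal epithelium starts had means of 63.7% to 87.9%. The members' own mean over the 5 tested starts was 41.6%, 34.4% and 56.7% in young and 46.3% and 53.9% in old libraries. The part of other cells, or of library differences, in the members' levels was not tested.

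**Figure D3:**
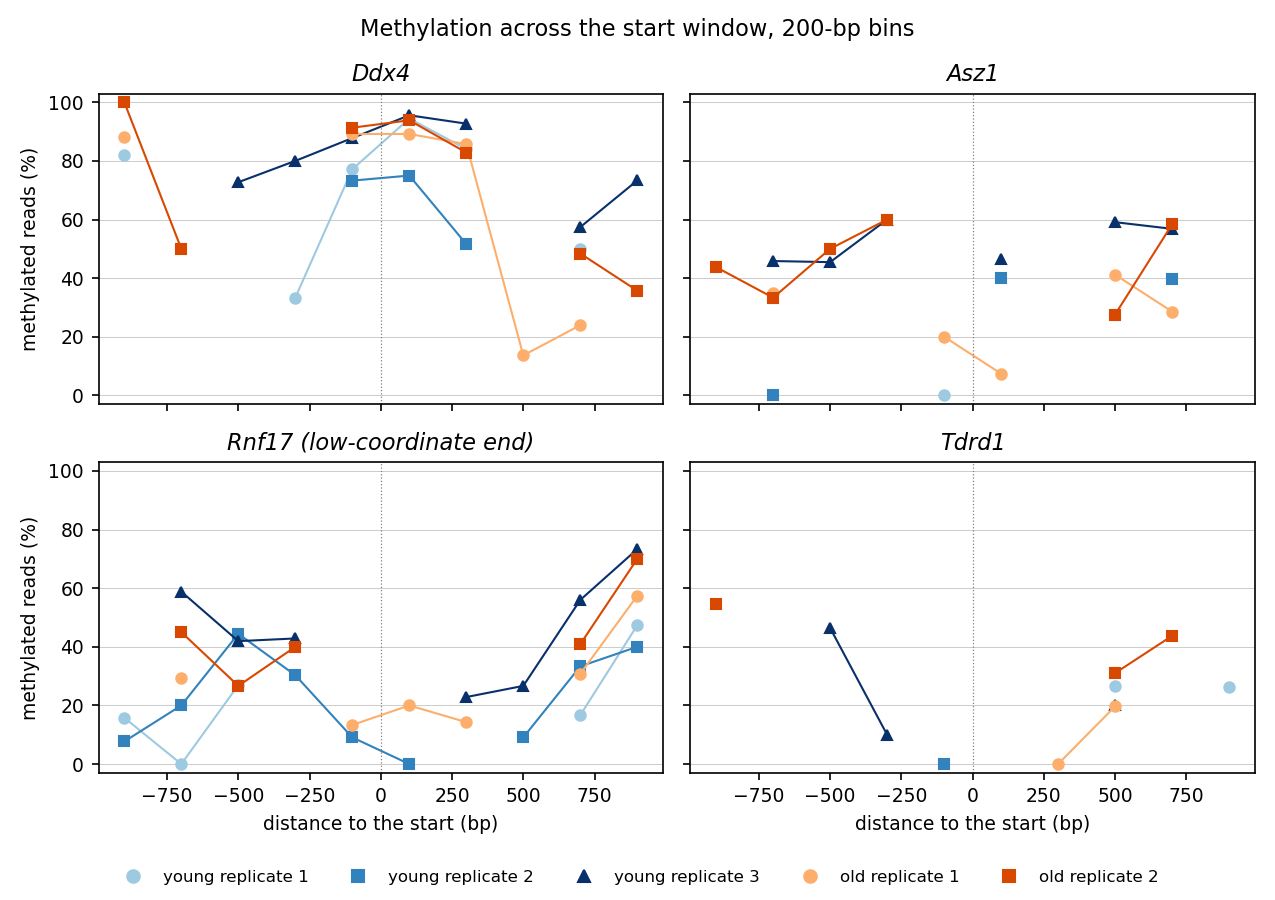
Methylated reads in percent in 200-bp bins by distance to the start (base pairs) at Ddx4, Asz1, Rnf17 (low-coordinate end) and Tdrd1, one line per library, bins of 10 or more reads. Ddx4 is high at the start and lower downstream, whereas the bins next to the start are low at Rnf17 and Tdrd1 in the few libraries that read them.

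Gene bodies were highly methylated in all 10 members, from a pooled 84.7% at Tdrd6 and 87.3% at Tdrd1 to 95.3% at Rnf17. The PIWI genes were at 93.3%, 91.7% and 88.0% in young and 92.7% and 93.6% in old libraries for Piwil1, and at 91.0%, 93.1% and 90.5% in young and 90.1% and 91.7% in old libraries for Piwil2. Mov10l1 was at 92.1% to 94.1% and Tdrd9 at 92.0% to 94.9% over the 5 libraries. Mael was at 93.7% to 95.8%, Asz1 at 93.0% to 96.0% and Rnf17 at 94.2% to 96.4%. Tdrd1 varied more, at 89.1%, 87.9% and 84.2% in young and 85.1% and 90.4% in old libraries, and its 2 old libraries enclosed the young values of 87.9% and 89.1%.

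No member's body was called, and all adjusted p-values were 1 (limma-type moderated quasi-binomial test), with 0% called over 26689 bodies and a smallest adjusted p of 0.464. limma on log2 odds called 0 bodies too, with 924 at an unadjusted p under 0.05. Old minus young was above 0 at 7 of 10 members and below 0 at 3 (Piwil2, Tdrd6 and Mael), with a median of 0.562 points over the 10, against -0.003 over all bodies. None had an unadjusted p under 0.05, which 2.80% of all bodies had. Ddx4 was the only one whose ages did not overlap, at 95.3%, 95.6% and 93.8% in young and 95.7% and 95.7% in old libraries, a difference of 0.773 points. Of all bodies 6.72% had both old libraries above the young ones and 7.52% both below, so 1 of 10 is near the background.

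In bodies the libraries took the opposite places to those at the members' starts. Young replicate 2 was highest at 7 of 10 members and young replicate 3 lowest at 8 of 10. Over all 21224 bodies with a pooled level of 85 to 97% these shares were 52.8% and 46.6%. The gap between start and body differed between libraries of the same age. At Tdrd1, start minus body was -55.7, -76.0 and -47.3 points in young and -66.3 and -51.1 in old libraries. At Asz1 it was -78.3, -61.7 and -39.2 in young and -68.1 and -50.8 in old libraries. At Ddx4 it was -12.1, -22.8 and -4.15 in young and -12.2 and -6.45 in old libraries. At Rnf17 it was -66.5, -71.0 and -51.5 in young and -63.9 and -57.1 in old libraries. At Mov10l1 it was -45.7, -66.6 and -31.7 in young and -22.6 and -36.4 in old libraries. The gap was narrowest in young replicate 3 at 4 of the 5 members with a tested start, and at Mov10l1 it was narrowest in old replicate 1.

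Tdrd6 had the widest difference between ages of the 10 bodies with all libraries, and it turned on a stretch that some libraries did not read. The body was at 78.9%, 96.0% and 90.5% in the young and at 74.9% and 86.3% in old libraries, with means of 88.5% ± 8.72 (SD, n = 3) and 80.6% ± 8.05 (SD, n = 2). The difference of -7.82 points did not pass the test (exact permutation test, p = 0.4). A stretch of low methylation lay at chr17:43629001-43630845, inside the gene next to the window of its high-coordinate end. It was at 1.28% over 78 reads in young replicate 1, 0% over 93 reads in old replicate 1 and 23.6% over 55 reads in old replicate 2. The reads of young replicate 1 all lay in its first 1000 bp and those of the old libraries in the rest. Young and old libraries thus shared no CpG in it. Young replicates 2 and 3 had no read in the stretch, and they were the 2 libraries with the highest body level. Without the stretch, an alternative chosen after seeing the data, the body was at 95.4%, 96.0% and 90.5% in young and 92.6% and 93.6% in old libraries, and the difference was -0.809 points (exact permutation test, p = 0.8). With the stretch kept, the difference also moved with single libraries: it was -13.5 points without old replicate 2, -12.6 without young replicate 1, -4.05 without young replicate 2 and -2.13 without old replicate 1. Without old replicate 1 the Tdrd1 body, at 3.33 points, differed more.

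Along the genes, tiles of 1000 bp were high nearly everywhere outside the start. With reads pooled over the 5 libraries, 471 tiles of the 10 bodies had at least 20 reads and 3 CpGs, and 395 of these were at 90% or more. A single one was under 50%, the Tdrd6 tile at chr17:43629001-43630000, whose 78 reads all came from young replicate 1. Among the other low ones, Piwil2 had a neighbouring pair 56.0 and 57.0 kb from its used end. The first, chr14:70428001-70429000, was at 42.7%, 51.7% and 79.0% in young and 52.3% and 59.7% in old libraries (pooled 57.4% over 357 reads), and the next was at a pooled 59.5% over 79 reads. Tdrd1 had a dip at chr19:56848001-56849000, 22.3 kb past its start, at 69.3%, 71.3% and 54.0% in young and 58.6% and 65.9% in old libraries over 1217 pooled reads.

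**Figure D4:**
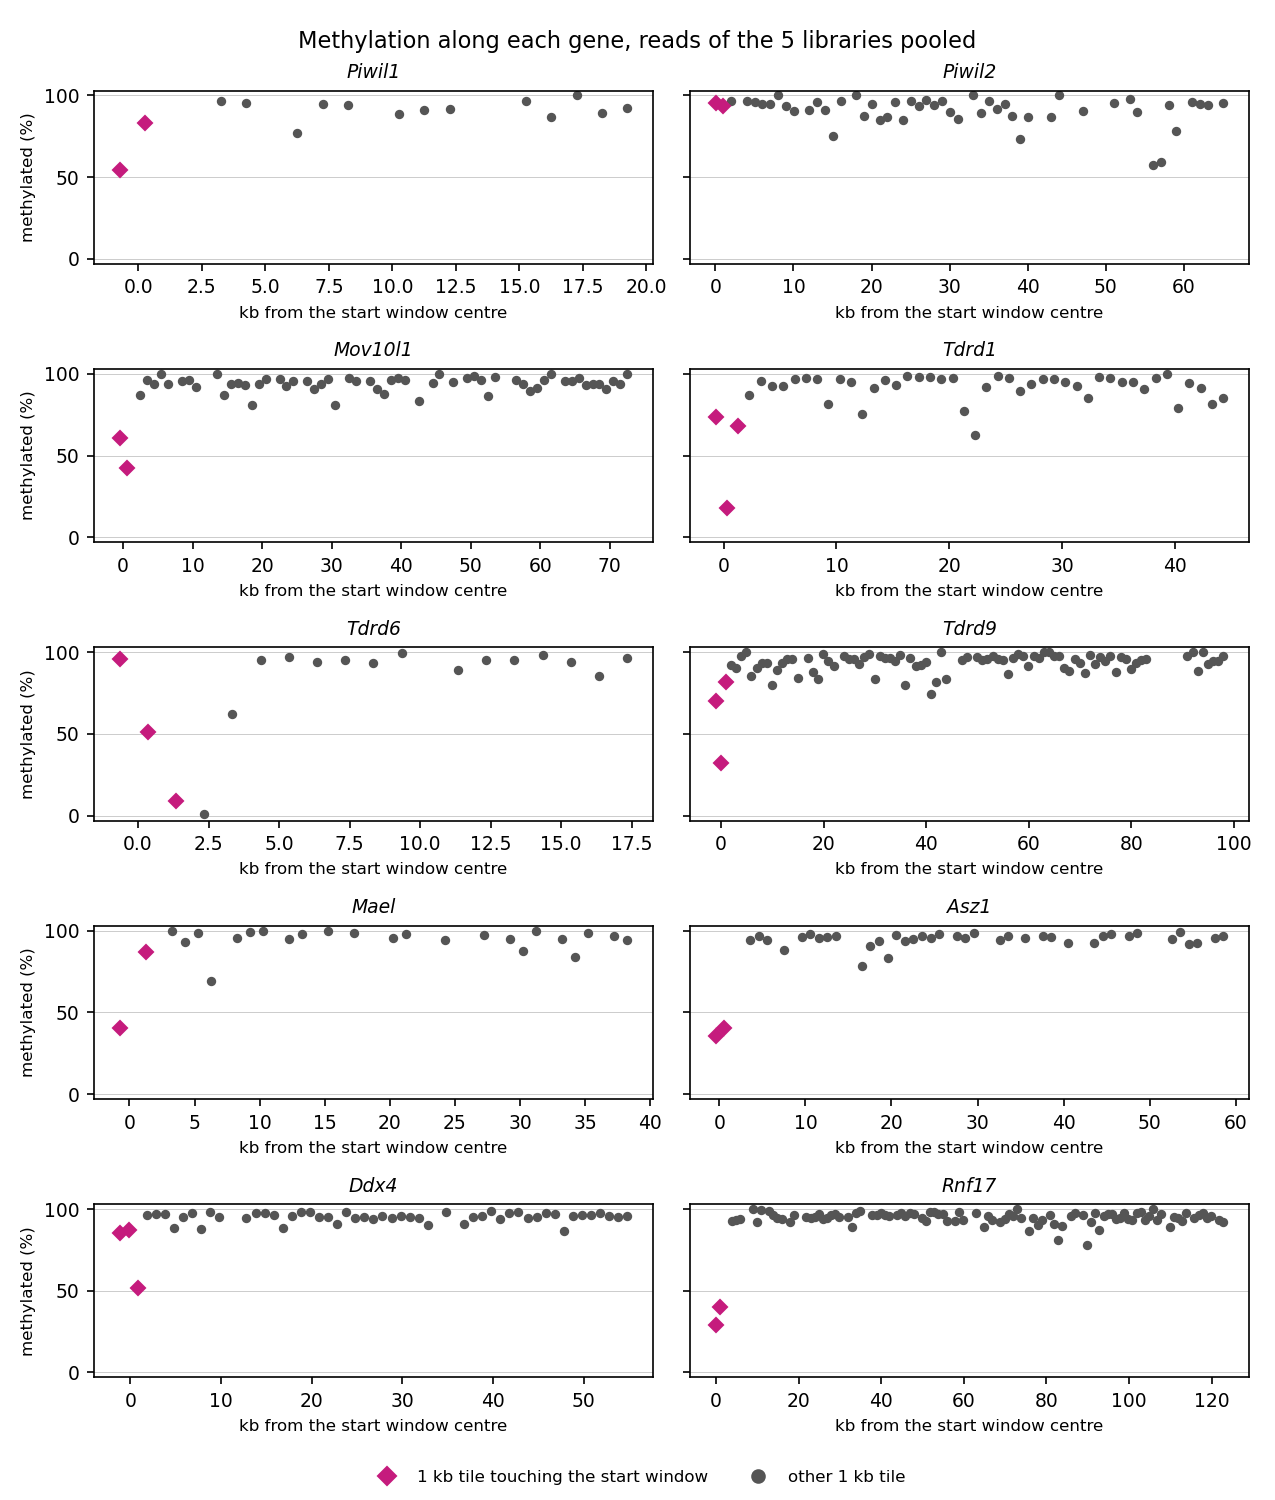
Pooled methylation in percent of 1000-bp tiles (at least 20 reads and 3 CpGs) by distance in kb from the centre of the start window, for each of 10 genes; diamonds touch the start window and circles do not. Body tiles lie mostly at 90% or more, Tdrd6 has the low tile at 1.28% (read in young replicate 1 only), and Piwil2 has the pair at 57.4% and 59.5% far from its used end.

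Tested one by one, 89 of the members' tiles had enough reads in every library, of 392712 tiles in the genome. None was called, as 0% of all tiles were (smallest adjusted p over all tiles 0.158; limma likewise called none, and gave 16548 tiles an unadjusted p under 0.05). Of the 89, 2 (2.25%) had an unadjusted p under 0.05, against 3.70% of all tiles. The first lay in Asz1, at chr6:18101001-18102000, 7.56 kb past the start, at 90%, 88.2% and 79.5% in young and 94.1% and 94.7% in old libraries (limma-type moderated quasi-binomial test, p = 0.0301, adjusted p = 1). The other lay in Piwil2, at chr14:70411001-70412000, at 72.7%, 50% and 65.8% in young and 77.1% and 96.2% in old libraries on 20 to 48 reads (limma-type moderated quasi-binomial test, p = 0.0493, adjusted p = 1). Both tiles were picked by this p, so the order of the ages in them is no separate result. Tiles at such a p were no more frequent than in the background.

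A further 20 genes, listed as related to the pathway, were measured in the same way. Of their starts 9 could be tested, with 7 higher and 2 lower in old sperm, a median difference of 1.33 points and 0 called. For Spocd1, Tex15 and Pnldc1 the less methylated end of the span stood in for the start. Of these, Tex15, whose difference is the median, and Pnldc1 were higher in old sperm and Spocd1 was lower. Their mean was 35.9%, 34.4% and 45.04% in young and 41.4% and 42.9% in old libraries. Tdrd3, described below, enters the mean of old replicate 1 with 47.3% and the means of the other libraries with 0% to 5.88%. The 3 lowest by pooled level were Exd1, a partner of Tdrd12 in the piRNA machinery, at 1.75%, Tdrd3 at 21.8% and Fkbp6, a co-chaperone of piRNA loading, at 29.5%. The 3 highest were Tdrd12 at 70.8%, the fetal PIWI gene Piwil4 at 58.4% and Spocd1, which acts in piRNA-directed DNA methylation, at 52.6%. Fkbp6 was read deeply, on 1040 to 1533 reads, and was at 28.2%, 16.7% and 40.2% in young and 30% and 29.1% in old libraries. It again had young replicate 2 lowest and young replicate 3 highest. Of the 20 bodies, 8 were higher and 12 lower in old sperm, with a median difference of -0.164 points and 0 called.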

How the data were processed

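Per the file headers, the deposited files list for each cytosine and strand the coverage, a count of reads, and the percent of reads read as methylated (C) or unmethylated (T). The authors' lists start at 5 reads, and percent times coverage came out as whole reads for 100% of cytosines. The submitters' processing notes name the mm10 (GRCm38) build, Bismark 0.16.3, Trim Galore 0.4.3 and methylKit 1.4.0, without settings. The listed reads summed to between 67774094 and 97769462 per library, with a median of 7 per CpG after the strands were merged. Of 13063725 CpGs seen in any library, 17.3% were in all 5, so a part's level can rest on different CpGs in different libraries. Unplaced sequences (2.77% to 3.85% of reads) were not used.

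Methylated and total reads were summed per part and library. Old was set against young in a quasi-binomial fit across all starts, bodies or tiles, with the dispersion moderated as in limma 3.58.1 (R 4.3.3) and kept at 1 or more, and Benjamini-Hochberg adjustment. It was tested on simulated data. limma on log2((methylated + 1)/(unmethylated + 1)), a binomial model, coverage limits, windows and left-out libraries were alternatives. Where a gene had several starts, the most upstream was used. For a gene without a strand, both ends of its span entered the fit of starts. Profiles use 200-bp bins, wider than the 100-bp bins first planned because few reads fell in each. Promoter sequences were aligned to the calls by position, and 99.99% of 74244 calls in promoters fell on CG. Scripts ran in Python 3.11.15 with scipy 1.17.1, pandas 2.3.3 and numpy 2.4.6. The members and lists were chosen with earlier results of these data known. Tiles with an unadjusted p under 0.05 are named, as are the 3 lowest and 3 highest starts of the further listed genes.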

Additional observations from a re-analysis of the deposited data

How the results depend on the processing

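Of 210 alternatives for single members, 30 (binomial model and replicate block) have the main difference by construction. Of the other 180, 149 kept its direction and 31 turned it. Leaving out the most covered CpGs gave each member exactly the main difference. Those alternatives are counted among the 149 but could not turn it. No member was called under any of the alternatives that had a test. Equal weight for each CpG gave a difference but no test, so no call was possible under it. The binomial model has no term for the spread between libraries and called 748 starts, 772 bodies and 2357 tiles; Tdrd6's body passed it by adjusted p (0.000138, by the binomial model fitted across all bodies) but not by size. CpGs with 10 or more reads gave 1 called body and leaving out the most covered CpGs 1 called tile; the cause was not tested. Libraries of equal replicate number had correlations of deviations of 0.001 and -0.018, and whether they shared a preparation was not tested. With the replicate block 0 starts, 0 bodies and 0 tiles were called. Leaving out 1 library at a time gave old minus young of -8.53 to 11.96 points at the Tdrd1 start, -8.02 to 10.7 at Asz1, -0.079 to 8.31 at Ddx4 and -0.614 to 8.20 at Rnf17. In bodies it gave -1.41 to 0.217 for Piwil2, -1.06 to 0.176 for Mael, -1.94 to 3.33 for Tdrd1, -0.366 to 1.05 for Tdrd9, -0.121 to 0.979 for Rnf17 and -13.5 to -2.13 for Tdrd6. Without both young replicates 2 and 3 the differences turned to -4.23 at the Tdrd1 start and, in bodies, to -0.209 for Piwil1, -1.31 for Tdrd1, 1.72 for Tdrd6 and -0.063 for Tdrd9. A 500-bp window turned the Rnf17 start to -5.68 and the Ddx4 body to -1.0004, and equal weight for each CpG turned the Tdrd1 start to -1.76 and the Mael body to 0.418. CpGs with 10 or more reads turned bodies to 0.337 for Piwil2, -0.439 for Mov10l1 and -0.280 for Tdrd9. CpGs covered in all 5 libraries turned them to 1.33 for Piwil2, -0.347 for Mov10l1, -2.90 for Tdrd1 and -0.995 for Tdrd9. Mov10l1's start kept its direction in every setting in which it could be computed, at 10.4 to 26.9 points with 1 library left out. Starts of 24 to 134 reads a library, as at 3 of the 5 tested members, limit what difference could be seen.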

Other observations

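Among the 20 further genes listed as related to the pathway, Tdrd3 had a start that stood out in 1 library. Tdrd3 encodes a tudor-domain protein that binds methylated histones and works with a topoisomerase. Its start window was at 1.28%, 2.08% and 5.88% in the young libraries, in order of replicate number, against 47.3% in old replicate 1 and 0% in old replicate 2 (limma-type moderated quasi-binomial test, p = 0.00119, adjusted p = 0.952). Of the 438 reads of old replicate 1, 390 lay at chr14:87416983-87417382, 400 to 800 bp past the start, over 52 CpGs at 52.8%. In the same stretch young replicate 1 had 40 reads at 7.5%, young replicate 3 had 60 reads at 11.7%, young replicate 2 had 5 reads and old replicate 2 had none. From 1000 bp before to 400 bp after the start all 5 libraries were at 0% to 2.08%, on 48 to 177 reads. The contrast between the ages at Tdrd3 thus rests on a stretch that old replicate 2 did not read.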
